A study of Mus musculus with 12 samples.

Results

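The levels of 9 mouse genes that mark or serve the itch-sensing neurons of the dorsal root ganglion were followed over the day: the receptors Mrgprd, Mrgprx1, Mrgpra3, Il31ra, Osmr and Hrh1, and the peptide genes Nppb, Sst and Nts. They were chosen by symbol, not by their values, and all 9 were found among the 38594 rows of the deposited table that carry an Ensembl gene ID. The ganglia, which hold the cell bodies of the body's sensory neurons, were the lumbar ganglia L1 to L6 of naive male C57BL/6J mice aged 6 to 12 weeks. They were taken at zeitgeber time (ZT) 2, 8, 14 or 20, with 3 libraries at each time and 12 in all; no genotype, treatment or injury separates the groups. ZT counts hours from lights on; the lighting schedule is not stated. Nor do the labels tie each library to its own animal, so every p-value measures the spread between these libraries only, which may be partly technical. Libraries are named below by time and by the replicate number of the labels.

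Itch neurons of the mouse ganglion fall into classes of small unmyelinated neurons, known in single-cell work as NP1, NP2 and NP3. NP1 neurons carry Mrgprd, a receptor for beta-alanine, and innervate the outer skin. NP2 neurons carry Mrgpra3, the receptor through which chloroquine evokes itch, together with Mrgprx1 (long called Mrgprc11), which responds to peptide agonists, and the histamine receptor gene Hrh1 is also found in itch neurons. NP3 neurons make natriuretic peptide B (Nppb), which passes the itch signal to the spinal cord, and somatostatin (Sst) and neurotensin (Nts). They also carry Il31ra and Osmr, whose proteins pair to form the receptor of interleukin-31, a T-cell cytokine of itching skin. Osmr also pairs with the gp130 protein of Il6st to bind oncostatin M.

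The table held estimated counts that summed in a library to between 89.6 and 124.7 in units of 1000000. The values look scaled by coverage, though how they were made is not stated, so this total is not taken as a number of reads. Under that scaling, approximate reads, from transcript lengths, came to 47.9 to 67.1 in that unit. Levels are given as CPM, counts per 1000000 counts of the normalised library total. As far as that scaling holds, they compare genes per length. The labelled tissue matched its markers: the 12 defining sensory neuron genes, among them Avil at a median of 686.2 CPM, Isl1 at 99.2, Pou4f1 at 125.8 and Prph at 1156, were present in every library. Of 8 measured spinal cord markers, Gad1 had a median of 0.495 CPM, and Gad2, Slc6a5 and Olig1 had medians of 0.036, 0.011 and 0.048; the list summed to between 5.91 and 7.83 CPM, most of it from the astrocyte water channel gene Aqp4. All 10 skeletal muscle markers, led by Acta1, Ckm, Myh4 and Myh1, were above 0 in every library and uneven between them. Their summed level ran from 65.3 to 296.5 CPM at ZT2, 68.8 to 303.7 at ZT8, 140.0 to 377.5 at ZT14 and 22.6 to 743.7 at ZT20. The libraries richest in muscle were ZT2 replicate 2, ZT8 replicate 3, ZT14 replicate 1 and ZT20 replicate 1. The library numbers in the labels (3 to 5, 6 to 8, 11 to 13 and 16 to 18) follow the order of the times, so a batch and the time of day cannot be told apart. In bulk ganglia, fewer cells of a type and less RNA per cell cannot be told apart either.

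On build GRCm38 with the GENCODE M21 annotation, 3 of the 9 genes lay on chromosome 7. Mrgprd spans chr7:145314835-145324086 on the plus strand, and the copy-rich Mrgpr cluster on the minus strand holds Mrgpra3 at chr7:47588950-47601372 and Mrgprx1 at chr7:48020971-48027597. The peptide genes Nppb (chr4:147985788-147987205, plus), Sst (chr16:23889573-23890958, minus) and Nts (chr10:102481756-102490486, minus) have 1 annotated transcript each. Il31ra (chr13:112519898-112594360, minus) has 8, Osmr (chr15:6813577-6874969, minus) has 6 and Hrh1 (chr6:114397936-114483296, plus) has 5. No stretch of 150 bases, the read length, in the transcripts of any of the 9 genes occurred in another annotated gene. Over 50 bases, 5.84% of the stretches of Mrgprx1 and 7.14% of those of Mrgpra3 were shared with other genes of the cluster, 0.379% of those of Il31ra and 0.0576% of those of Osmr were shared elsewhere, and the other 5 genes shared none. How reads were split between near-identical Mrgpr copies is not given, so the levels of Mrgpra3 and Mrgprx1 are less certain than those of the rest.

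Because the labels set the groups apart only by time of day, the promoters were read for motifs of clock-linked and activity-linked factors. RefSeq windows of GRCm38.p6, from 250 bases before to 50 after each start, were found for 8 of the 9 genes (11 windows, 4 of them for Hrh1); Mrgpra3 had no entry. The windows of 3 genes are shown, that of Mrgprx1 because its level came closest to a time difference, and those of Sst and Mrgprd because they hold a match, which is in capitals (Mrgprx1, chr7:48027548-48027847, minus strand; Sst, chr16:23890795-23891094, minus strand; Mrgprd, chr7:145314585-145314884, plus strand), each 5′ to 3′.
Mrgprx1: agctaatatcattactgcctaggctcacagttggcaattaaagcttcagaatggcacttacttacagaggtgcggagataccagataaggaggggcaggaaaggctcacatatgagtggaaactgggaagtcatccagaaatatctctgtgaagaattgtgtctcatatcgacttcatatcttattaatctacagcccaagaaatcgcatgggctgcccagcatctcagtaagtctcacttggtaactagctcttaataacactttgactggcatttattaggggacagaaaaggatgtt
Sst: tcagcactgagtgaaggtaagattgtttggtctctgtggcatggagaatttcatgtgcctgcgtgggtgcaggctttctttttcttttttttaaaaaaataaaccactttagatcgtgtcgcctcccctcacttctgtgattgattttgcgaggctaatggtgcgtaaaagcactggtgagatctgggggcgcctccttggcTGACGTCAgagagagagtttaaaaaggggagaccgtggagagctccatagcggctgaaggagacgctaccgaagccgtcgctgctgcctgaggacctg
Mrgprd: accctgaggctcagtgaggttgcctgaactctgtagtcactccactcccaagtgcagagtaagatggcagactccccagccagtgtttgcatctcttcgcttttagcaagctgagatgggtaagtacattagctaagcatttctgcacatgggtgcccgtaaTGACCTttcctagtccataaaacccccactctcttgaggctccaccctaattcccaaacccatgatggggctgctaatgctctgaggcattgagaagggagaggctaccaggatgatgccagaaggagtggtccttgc
The Sst window holds the cAMP response element TGACGTCA, starting at -48 from the start site; 1.79% of the 32851 mouse promoter windows of this length hold it. In the Mrgprd window the capitals mark AGGTCA read on the opposite strand, at -88, and the fourth window of Hrh1 holds AGGTCA at -69. This nuclear receptor motif occurs in 16.3% of windows. The clock E-box CACGTG, in 7.15% of all windows, and the D-box TTATGTAA, in 0.938%, were not among the letters of any of the 11 windows on either strand. A match is a description of the letters only.

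By median level over the 12 libraries, the order was Mrgprd (71.5 CPM), Mrgprx1 (29.0), Nppb (22.9), Osmr (19.0), Nts (18.7), Sst (18.6), Mrgpra3 (17.0), Il31ra (10.9) and Hrh1 (2.37). Mrgprd stood apart at the top, above Mrgprx1 in 12 of 12 libraries with no overlap of their ranges, and Hrh1 stood apart at the bottom. Mrgprx1 exceeded Nppb in 11 of 12 libraries, Nppb exceeded Osmr in 10, and Mrgpra3 exceeded Il31ra in 11. Neighbours in the middle of the order did not differ beyond their spread: Osmr was above Nts in 6 of 12 libraries, Nts above Sst in 7 and Sst above Mrgpra3 in 7.

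**Figure D1:**
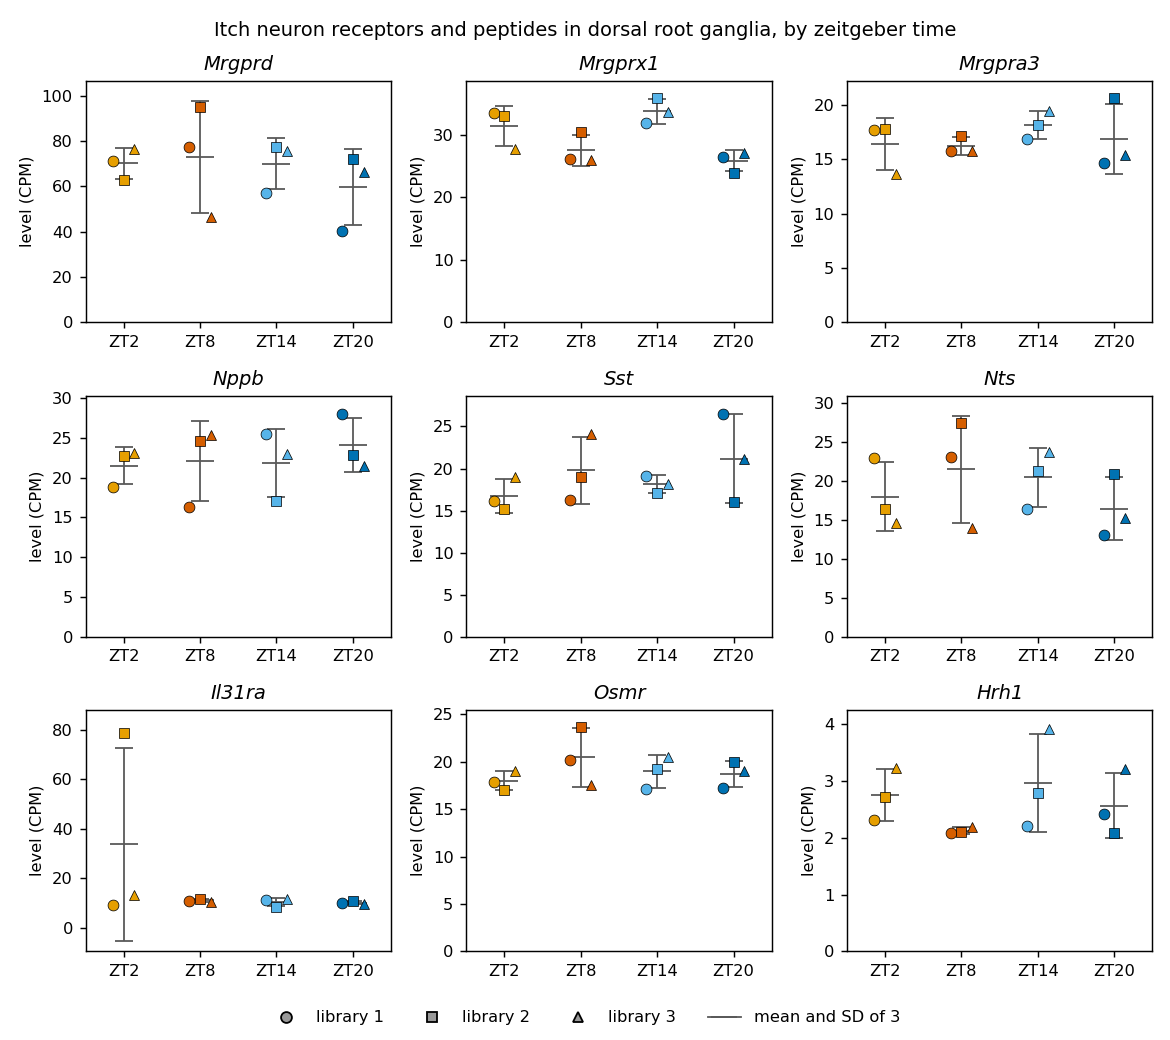
Level of each of the 9 genes in CPM (vertical axis, starting at or below 0) at the 4 zeitgeber times (horizontal axis); points are the 3 libraries of a time, and the bar with caps is their mean and SD. Most genes overlap across all times, Mrgprx1 is lower at ZT20 than at ZT14 without overlap, and the Il31ra value of 78.9 CPM in ZT2 replicate 2 stands far above the other 11 libraries.

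Among the Mrgpr receptors, Mrgprd varied widely within each time. It measured 71.1, 62.7 and 76.6 CPM at ZT2, 77.4, 95.1 and 46.4 at ZT8, 57.0, 77.3 and 75.7 at ZT14, and 40.4, 71.9 and 66.2 at ZT20. The lowest and the highest value of ZT8 spanned nearly the whole range of the day, and all times overlapped. Mean levels were 70.1 ± 6.98 (SD, n = 3), 73.0 ± 24.7, 70.0 ± 11.3 and 59.5 ± 16.8 CPM. The widest difference between times, ZT20 against ZT8, was a log2 fold change of -0.29 with a 95% interval of -0.90 to 0.31 (edgeR adjusted p = 0.967), and without ZT8 replicate 2 it was -0.06 and without ZT8 replicate 3 -0.54.

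Mrgprx1, the peptide-sensing receptor of NP2 neurons, varied least within a time and came closest to a time difference. Its values were 33.5, 33.0 and 27.7 CPM at ZT2, 26.2, 30.4 and 26.0 at ZT8, 31.8, 35.8 and 33.6 at ZT14, and 26.5, 23.9 and 27.1 at ZT20. Every ZT14 library lay above every ZT8 and ZT20 library, and every ZT2 library lay above every ZT20 library. Means alternated, at 31.4 ± 3.19, 27.5 ± 2.48, 33.8 ± 2.00 and 25.9 ± 1.72 CPM. For ZT20 against ZT14 the log2 fold change was -0.38 (SE 0.09, 95% interval -0.58 to -0.19), with an unadjusted p of 0.00102 and an edgeR adjusted p of 0.348. The 12-h alternation, which sets ZT2 with ZT14 against the other times, had an unadjusted p of 0.000694 and an edgeR adjusted p of 0.319. DESeq2, which called 0.407% of genes in that test, gave Mrgprx1 an adjusted p of 0.0107; over the 19 alternatives the adjusted p ran from 0.0107 to 0.639. The call therefore held with 1 of the tools tried, and with 4 times a 12-h pattern rests on a single alternation.

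Mrgpra3, the chloroquine receptor, measured 17.8, 17.8 and 13.6 CPM at ZT2, 15.8, 17.2 and 15.8 at ZT8, 16.9, 18.2 and 19.5 at ZT14, and 14.7, 20.6 and 15.4 at ZT20. Its times overlapped, and its highest and lowest libraries were from ZT20 and ZT2. The means of 16.4 ± 2.40, 16.3 ± 0.806, 18.2 ± 1.31 and 16.9 ± 3.24 CPM left ZT14 against ZT8 at a log2 fold change of 0.16 (95% interval -0.13 to 0.45, edgeR adjusted p = 0.989). Both genes mark NP2 neurons, and the difference between them was not tested.

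Of the peptides, Nppb, the transmitter that NP3 neurons release onto spinal itch neurons, measured 18.8, 22.7 and 23.1 CPM at ZT2, 16.3, 24.6 and 25.3 at ZT8, 25.5, 17.1 and 22.9 at ZT14, and 28.0, 22.8 and 21.5 at ZT20. Means ran from 21.5 ± 2.36 at ZT2 to 24.1 ± 3.44 CPM at ZT20, and each time overlapped each other. The widest difference, ZT2 against ZT20, was a log2 fold change of -0.16 (95% interval -0.57 to 0.25, edgeR adjusted p = 0.887). Nppb is best known from the heart; of the 6 cardiac markers in the table, Nppa reached at most 0.326 CPM, Myl7 at most 0.388 and Tnnt2 at most 0.321, and Nppa and Myl7 were at 0 in at least 1 library. The list summed to between 6.83 and 12.6 CPM, of which Myh6 gave a median of 4.62. Tnni3 lay between 1.73 and 2.77 CPM and Actc1 between 0.167 and 4.98, both named after their values were seen.

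Sst, whose product restrains spinal inhibitory neurons, measured 16.1, 15.1 and 19.0 CPM at ZT2, 16.2, 19.0 and 24.1 at ZT8, 19.2, 17.1 and 18.2 at ZT14, and 26.5, 16.0 and 21.1 at ZT20. The highest library of ZT20 was the one richest in muscle markers, and all times overlapped. Means were 16.7 ± 2.00 at ZT2 and 21.2 ± 5.24 CPM at ZT20, a log2 fold change for ZT2 against ZT20 of -0.34 (95% interval -0.73 to 0.05, edgeR adjusted p = 0.721). Of the endocrine cells that also make somatostatin, the markers Ins2, Gcg and Iapp reached at most 0.151, 0.114 and 0.067 CPM, while Chga, also a neuronal gene, lay between 225.8 and 261.1.

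Nts, the neurotensin gene, was as uneven within a time as Mrgprd. It measured 23.0, 16.5 and 14.6 CPM at ZT2, 23.1, 27.6 and 14.0 at ZT8, 16.4, 21.3 and 23.7 at ZT14, and 13.1, 20.9 and 15.3 at ZT20. Low and high libraries occurred at every time. The means of 21.5 ± 6.93 CPM at ZT8 and 16.4 ± 4.05 at ZT20 gave a log2 fold change for ZT20 against ZT8 of -0.39 (95% interval -0.99 to 0.22, edgeR adjusted p = 0.957).

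Il31ra, the specific chain of the interleukin-31 receptor, was even across the day in 11 libraries and high in 1. It measured 9.004, 78.9 and 13.4 CPM at ZT2, 10.9, 11.7 and 10.3 at ZT8, 11.1, 8.51 and 11.6 at ZT14, and 10.2, 10.8 and 9.497 at ZT20. The value of ZT2 replicate 2 was 7.22 times the median of the other 11 libraries; for the other 8 genes the farthest library was between 0.563 and 1.67 times the median of the rest. A library at least 4-fold from the median of the rest occurred in 171 of 16258 genes with a mean of 1 CPM or more (1.05%); ZT2 replicate 2 itself was that far above for 8 genes and below for 19. The ZT2 mean was 33.7 ± 39.1 CPM with this library and 11.2 without it. Against ZT20 the log2 fold change was 1.73 (95% interval 0.19 to 3.27, edgeR adjusted p = 0.691), and 0.15 without this library.

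In the same library a pseudogene that overlaps Il31ra moved the other way. Gm3226, a processed pseudogene of 1342 bases at chr13:112593743-112595084 on the same strand, shares 45 exonic bases with Il31ra-204 and Il31ra-205, the transcripts that begin at 112594360; neither is annotated as protein-coding, and the other 6 transcripts of Il31ra do not touch it. Gm3226 measured 162.0 CPM in ZT2 replicate 2 and between 359.9 and 444.9 CPM, with a median of 416.6, in the other 11. In approximate reads per 1000000, that library had 162.5 for Il31ra and 160.9 for Gm3226, where the others had 17.4 to 27.3 and 354.0 to 429.9. The sum of both genes was 323.4 in that library, 0.752 of the median of the others and below their whole range of 371.4 to 452.2. In the other libraries Gm3226 makes up most of this sum. Of the pseudogene's own 150-base stretches 53.5% occur in other genes, and of its 50-base stretches 82.1%, most often in Tuba1b. The Gm3226 level may therefore include reads of other genes. The next genes on the chromosome were not raised with Il31ra: at ZT2, Il6st, the gp130 gene, stayed between 67.2 and 76.0 CPM, Ddx4 between 1.85 and 2.39 and Slc38a9 between 13.9 and 15.1. ZT2 replicate 2 was also the muscle-richest library of its time. The libraries still richer in muscle, ZT8 replicate 3, ZT14 replicate 1 and ZT20 replicate 1, had Il31ra at 10.3, 11.1 and 10.2 CPM. The part of muscle, of the pseudogene or of the assignment of reads in the Il31ra value was not tested.

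**Figure D2:**
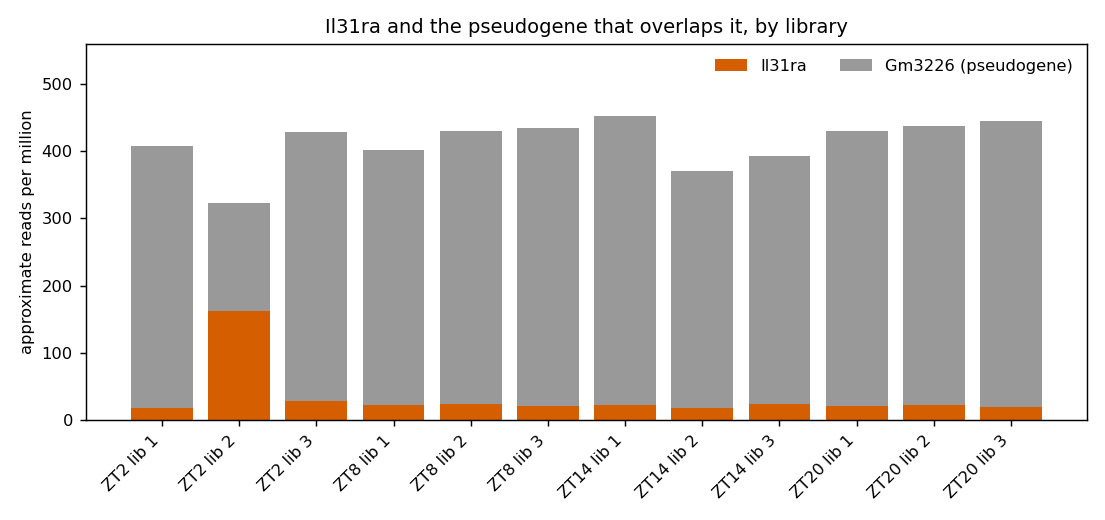
Approximate reads per 1000000 (vertical axis, from 0) assigned to Il31ra (orange) and to the overlapping pseudogene Gm3226 (grey, stacked) in each of the 12 libraries (horizontal axis). In ZT2 library 2 the Il31ra part is 162.5 and the pseudogene part 160.9, while in the other 11 libraries the Il31ra part is at most 27.3.

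Osmr, the partner chain, was not raised in that library. It measured 17.9, 17.1 and 19.1 CPM at ZT2, 20.2, 23.7 and 17.5 at ZT8, 17.1, 19.3 and 20.5 at ZT14, and 17.3, 19.9 and 19.0 at ZT20. All times overlapped, with means from 18.0 ± 1.01 at ZT2 to 20.5 ± 3.07 CPM at ZT8 (log2 fold change of ZT8 against ZT2 0.18, 95% interval -0.05 to 0.41, edgeR adjusted p = 0.903). Fibroblasts also express Osmr, and the 6 fibroblast markers summed to 591.6 to 721.1 CPM at ZT2, 495.4 to 831.7 at ZT8, 679.6 to 776.4 at ZT14 and 564.1 to 862.6 at ZT20, with none at 0. Their part in the Osmr level was not tested.

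Hrh1, the receptor through which histamine evokes itch, was the lowest of the set. It measured 2.32, 2.71 and 3.22 CPM at ZT2, 2.09, 2.101 and 2.19 at ZT8, 2.197, 2.78 and 3.91 at ZT14, and 2.41, 2.08 and 3.21 at ZT20. The 3 ZT8 libraries lay close together, below every library of ZT2 and ZT14. The log2 fold change of ZT14 against ZT8 was 0.48 (95% interval 0.004 to 0.95) with an edgeR adjusted p of 0.789, and that of ZT8 against ZT2 was -0.37 (95% interval -0.85 to 0.11) with an adjusted p of 0.909. Vessel cells also carry this receptor; 6 endothelial markers summed to 61.9 to 81.8 CPM and 6 of smooth muscle and pericytes to 145.6 to 180.6 CPM over the 12 libraries. Their part in the Hrh1 level was not tested.

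Taken over all tests with edgeR at an adjusted p under 0.05, 0 of the 9 genes were called. In the 4-time test of any difference, 0.0504% of the 25809 tested genes passed. In the test of a 24-h rhythm, 0.0659% passed, and in the 12-h alternation 0%. At an unadjusted p under 0.05, 1 of 9 genes (Mrgprx1) passed the test of any difference, against 6.19% of all genes, 0 of 9 the 24-h test, against 5.2%, and 1 of 9 (Mrgprx1) the 12-h alternation, against 7.44%. DESeq2 called Mrgprx1 in the test of any difference (adjusted p = 0.0206, over the alternatives 0.0206 to 0.818), where it called 1.07% of all genes; it called 0 of 9 in the 24-h test, where it called 0.582%. Limma-trend called 0 of 9 in each of these tests, where it called 0.0736%, 0.0659% and 0% of all genes. The fitted 24-h amplitude, the log2 distance from the mean to the peak, had a median of 0.08 over the 9 genes and of 0.10 over all genes tested. It was between 0.06 and 0.22 for 8 of them and 0.85 for Il31ra, where it rests on the high library.

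The 6 differences between pairs of times gave the same count of 0 of 9 by edgeR. The share of all genes called was 0.0465% for ZT14 against ZT2, 0.0232% for ZT20 against ZT8, 0.0194% for ZT8 against ZT2, 0% for ZT14 against ZT8, 0.0426% for ZT20 against ZT14 and 0.00387% for ZT2 against ZT20. At an unadjusted p under 0.05 the counts were 1 of 9 for ZT14 against ZT2 (Il31ra, background 5.19%), 0 for ZT20 against ZT8 (5.28%), 1 for ZT8 against ZT2 (Il31ra, 5.78%), 2 for ZT14 against ZT8 (Mrgprx1 and Hrh1, 6.3%), 1 for ZT20 against ZT14 (Mrgprx1, 6.28%) and 2 for ZT2 against ZT20 (Mrgprx1 and Il31ra, 7.05%). Libraries of both times did not overlap for 2 of 9 genes in ZT14 against ZT8, where 11.3% of all genes did not, for 1 in ZT20 against ZT14 (11.4%), 1 in ZT2 against ZT20 (14.7%) and 1 in ZT8 against ZT2 (11.7%). For ZT14 against ZT2 (11.2%) and ZT20 against ZT8 (9.85%) all 9 overlapped. DESeq2 called Mrgprx1 in ZT20 against ZT14 (adjusted p = 0.0200, over the alternatives 0.0200 to 0.830), where it called 0.393% of all genes. In ZT14 against ZT2 (0.37%), ZT20 against ZT8 (0.215%), ZT8 against ZT2 (0.312%), ZT14 against ZT8 (0.356%) and ZT2 against ZT20 (0.257%) it called none of the 9. Limma-trend called none of the 9 in these 6 differences, and of all genes it called 0.062% for ZT14 against ZT2, 0.0232% for ZT20 against ZT8, 0.0271% for ZT8 against ZT2, 0% for ZT14 against ZT8, 0.0542% for ZT20 against ZT14 and 0.00387% for ZT2 against ZT20. The median log2 fold change of the 9 genes was 0.11 in ZT14 against ZT2 and -0.09 in ZT20 against ZT8, beside -3.09e-05 and 0.00159 over all genes tested. The contrasts share libraries, so their counts are not independent.

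**Figure D3:**
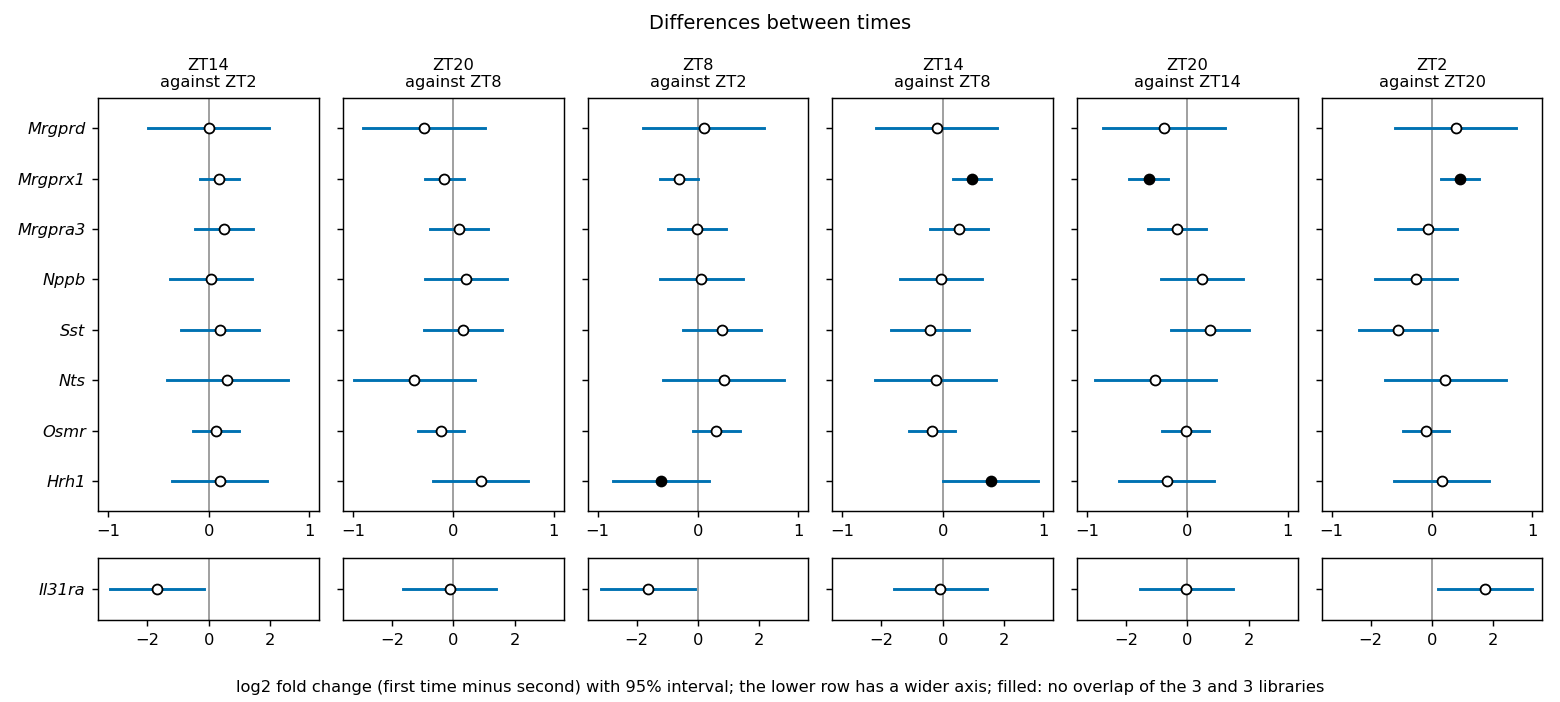
Log2 fold change (point) with its 95% interval (line) for the 9 genes in the 6 differences between times, on the horizontal axis; Il31ra has a row of its own with a wider axis, and filled points mark genes whose 3 and 3 libraries do not overlap. Most intervals include 0, those of Mrgprx1 are the narrowest, and those of Il31ra that involve ZT2 are the farthest from 0.

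The genes differed in how far libraries of the same time lay apart. The pooled within-time SD of log2 CPM was 0.12 for Mrgprx1, 0.14 for Osmr, 0.18 for Mrgpra3, 0.25 for Sst, 0.27 for Nppb, 0.29 for Hrh1, 0.38 for both Mrgprd and Nts, and 0.84 for Il31ra. The median was 0.10 over genes with a mean of 1 CPM or more and 0.19 over all tested genes. Of the genes with a mean of 1 CPM or more, 93.5% had a smaller spread than Mrgprd and 57.1% a smaller spread than Mrgprx1. Against the median of all tested genes, the spread of Mrgprx1 was small. The highest library of Mrgprd was 2.35 times the lowest. The other 9 markers of NP1 neurons varied less, between 1.12-fold and 2.01-fold with a median of 1.31-fold, among them Lpar3 (67.2 to 81.4 CPM), a lysophosphatidic acid receptor, and Gfra2 (153.5 to 172.3), the neurturin co-receptor. Of 7 other NP2 markers, Mrgpra2b varied more than Mrgprd, 4.07-fold, with 9.40 to 12.5 CPM in 4 libraries of ZT14 and ZT20 and 21.4 to 38.3 CPM in the other 8; it belongs to the same copy-rich cluster.

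Over the 12 libraries the 9 genes did not move as a block. Of 36 pairs, 2 passed a permutation test of Pearson's r at an adjusted p under 0.05 over the 36. Mrgprd and Nts, genes of different neuron classes, had r = 0.80 (permutation p = 0.00067, adjusted 0.0241) and Spearman's rho = 0.76 (permutation p = 0.00533, adjusted 0.0959), and r = 0.69 without the 2 libraries farthest from the Mrgprd median. Mrgprd and Osmr had r = 0.79 (permutation p = 0.00203, adjusted 0.0365) and rho = 0.85 (permutation p = 0.00076, adjusted 0.0274), and r = 0.90 without those 2. On deviations from the time means r was 0.80 and 0.92. Such values are not rare in these libraries: 9.17% of 16257 genes ran as close to Mrgprd as Nts did, and 10.3% as close as Osmr did.

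Among pairs of one class, Nts and Osmr, both on the NP3 list, had r = 0.74 (permutation p = 0.00438, adjusted 0.0526). Other pairs of that list ran opposite. Sst and Nts had r = -0.63 (permutation p = 0.0274, adjusted 0.147), and -0.30 without the 2 libraries farthest from the Sst median. Nppb and Nts had r = -0.51 (permutation p = 0.0916, adjusted 0.330). On deviations from the time means r was 0.77 for Nts and Osmr (permutation test, adjusted p = 0.0421) and -0.75 for Sst and Nts (adjusted p = 0.0422). Nppb and Sst, also of NP3 neurons, had r = 0.64 (permutation p = 0.0243, adjusted 0.147), and the receptor partners Il31ra and Osmr had r = -0.28 (permutation p = 0.352, adjusted 0.703). Mrgprx1 and Mrgpra3, both of NP2, had r = 0.33 (permutation p = 0.295, adjusted 0.664). For this NP2 pair r was 0.82 without the 2 libraries farthest from the Mrgprx1 median. It was 0.20 in the 8 libraries without the muscle-richest of each time, so it depended on the libraries used. Sst and Mrgprd ran opposite, at r = -0.69 (permutation p = 0.0138, adjusted 0.125), but r was 0.05 without the 2 libraries farthest from the Mrgprd median, so this relation rests on those libraries. The 2 passing pairs depended on single libraries as well. With any one of ZT8 replicates 1, 2 and 3, ZT14 replicates 2 and 3 or ZT20 replicate 1 left out 0 pairs passed, and 5 passed without ZT2 replicate 2. In the 8 libraries left when the muscle-richest of each time was dropped 0 passed, with r = 0.60 for Mrgprd and Nts and 0.85 for Mrgprd and Osmr.

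**Figure D4:**
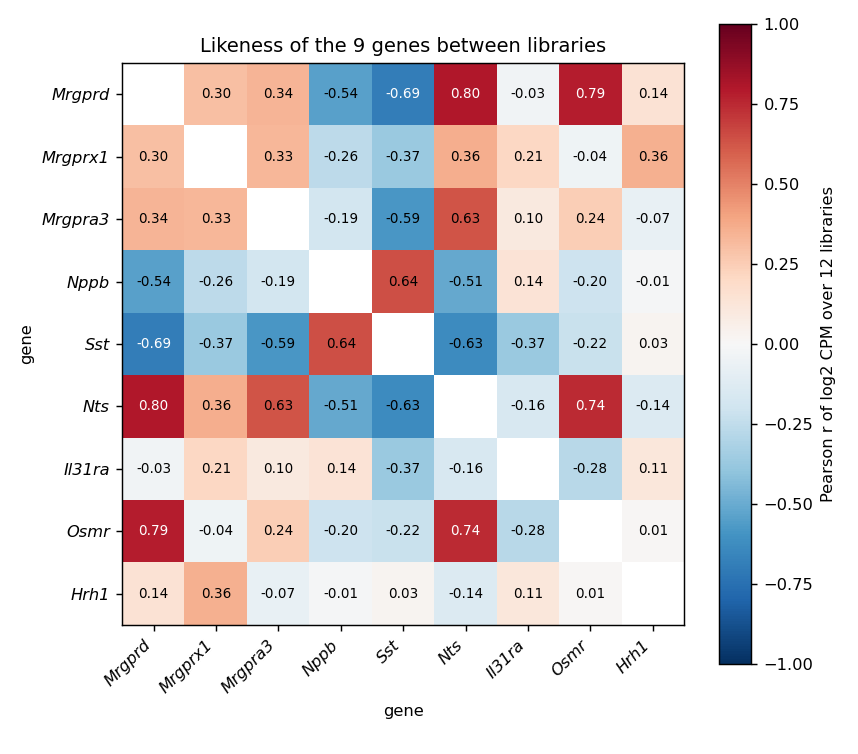
Pearson's r of log2 CPM over the 12 libraries for each pair of the 9 genes, as colour from -1 (blue) to 1 (red) with the value in each cell. Mrgprd, Nts and Osmr form the reddest cells (0.80, 0.79 and 0.74), Nppb and Sst run together at 0.64, and the Sst row is blue against Mrgprd and Nts.

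Of the 9 genes, 2 ran with the muscle sum given above after adjustment, Mrgprd and Osmr. How many of all genes ran as close to this sum was not counted, so such values may be common. On a log scale, Mrgprd ran against it with r = -0.72 (permutation p = 0.00820, adjusted over 18 relations 0.0448; rho = -0.74, permutation p = 0.00757, adjusted 0.0454; r = -0.75 without the 2 farthest libraries), and Osmr with r = -0.69 (permutation p = 0.0128, adjusted 0.0448; rho = -0.71, permutation p = 0.0117, adjusted 0.0525; r = -0.77 without the 2 farthest). Another library measure was an index of transcript length, the median log2 deviation of 2407 protein-coding genes of 3000 bases or more minus that of 4824 genes of 1000 bases or fewer. It counts Mrgprd and Osmr among the long genes, and Nppb (781 bases) and Sst (721 bases) among the short genes. The index was between -0.10 and -0.07 in ZT8 replicate 3, ZT14 replicate 1 and ZT20 replicate 1, 3 of the 4 libraries richest in muscle, and between -0.02 and 0.04 in the other 9. Since these 3 libraries lie apart, no correlation is given over all 12.

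Mrgprd measured 40.4 to 57.0 CPM in the 3 libraries of low index and 62.7 to 95.1 in the other 9, with no overlap, so 1 library each of ZT8, ZT14 and ZT20 holds the low Mrgprd values. Nppb lay the other way without overlap, at 25.3 to 28.0 CPM in the 3 and 16.3 to 24.6 in the 9. The share of all genes that separated the 3 from the 9 without overlap was not counted, so these splits may be common. Osmr (17.1 to 17.5 against 17.1 to 23.7) and Nts (13.1 to 16.4 against 14.6 to 27.6) lay low in the 3 but overlapped, and Sst lay high but overlapped (19.2 to 26.5 against 15.1 to 21.1). Within the 9 libraries Mrgprd still ran with the index, at r = 0.82 (permutation p = 0.00225, adjusted over the 9 genes 0.0202) and rho = 0.90 (permutation p = 0.00208, adjusted 0.0187), with r = 0.61 after the 2 farthest libraries were left out. Of 16258 genes, 1.91% ran as close to the index in these libraries. For the other 8 genes adjusted p was 0.353 or above. The part of transcript length, RNA quality or muscle in these levels was not tested.

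**Figure D5:**
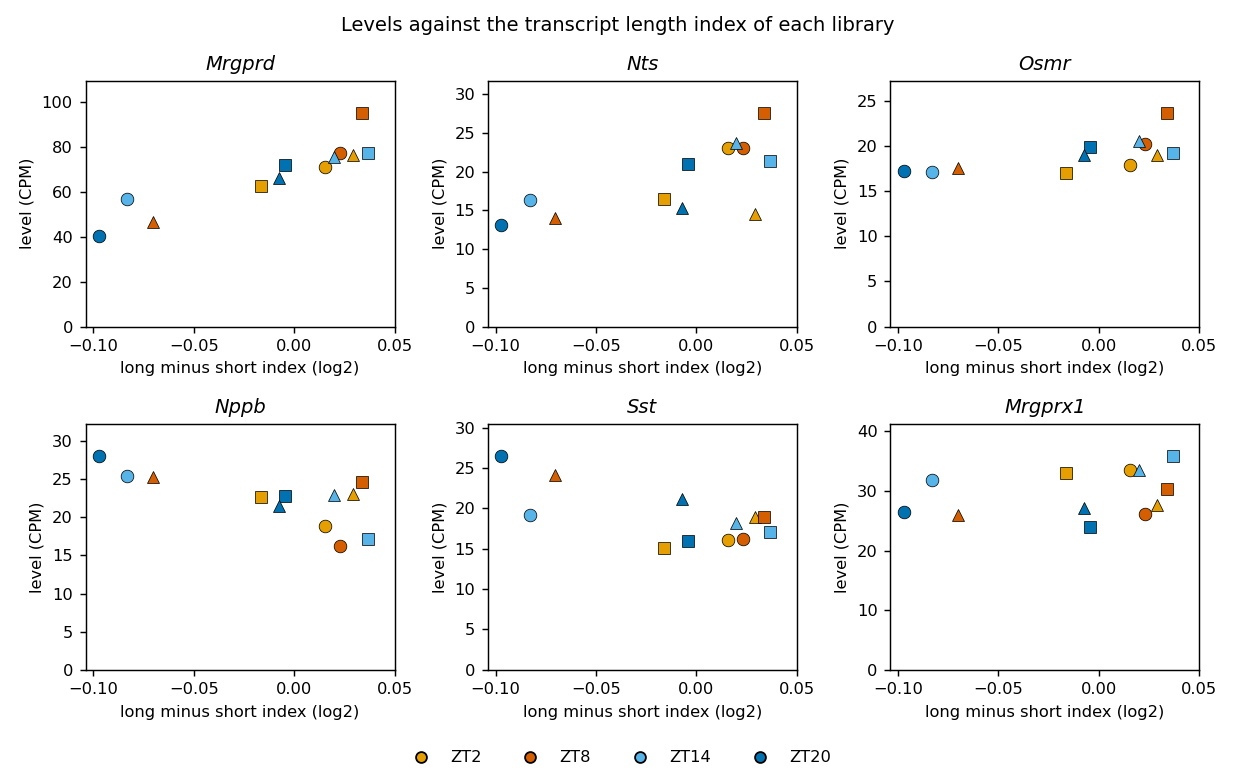
Level in CPM (vertical axis, from 0) of 6 of the genes against the long minus short index of each library on a log2 scale (horizontal axis), coloured by zeitgeber time; circles, squares and triangles are replicates 1, 2 and 3. The 3 libraries of ZT8, ZT14 and ZT20 at the left lie at -0.07 or below, where Mrgprd is at 57.0 CPM or less and Nppb at 25.3 or more, while Mrgprx1 shows no such split.

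As a description, the 3 genes of 16258 that ran closest to each of the 9 across the libraries were listed, without a test and as the extremes of a long list. Mrgprd ran with Ddb1, a DNA damage-binding and ubiquitin ligase subunit (r = 0.99), the tubulin tyrosine ligase Ttl (0.99) and the autophagy kinase Ulk1 (0.99), none of which is an itch gene. For Mrgprx1 they were Nr3c1, the glucocorticoid receptor (0.89), Mmp9 (0.87) and Poglut1 (0.86), and for Mrgpra3 Lyve1 (0.91), Prkch (0.88) and Csf2rb (0.84). Among the peptides, Nppb ran with Ube2r2 (0.92), Gm43096 (0.91) and Mvb12a (0.89), Sst with ENSMUSG00000103532 (0.96), Gm43355 (0.95) and Pdk2 (0.94), and Nts with C2cd2 (0.95), Med1 (0.93) and Sec24a (0.93). Osmr ran with Usp49 (0.94), Rnf125 (0.94) and Asxl1 (0.93), and those of Hrh1 included Smpdl3a (0.86) and Zfp346 (0.84). Il31ra ran with Sdccag8 (0.96), Dpp10 (0.91) and Adcy9 (0.91), but Spearman's rho for Sdccag8 was 0.27, since the high library sets r. No gene of the 9 had another of the 9 among its closest 3.

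Of 47 other itch receptors, ligands and signalling genes, 46 were in the table and 42 were tested, and by edgeR 0 of 42 passed any of the 9 tests, with 0.0504% of all genes passing that of any difference. At an unadjusted p under 0.05 in the test of any difference, 2 of 42 passed, Mrgprb4 and Cysltr2, beside 6.19% of all genes; the median log2 fold change was -0.00133 in ZT14 against ZT2 and -0.06 in ZT20 against ZT8. Mrgprb4, a receptor of neurons that respond to stroking, averaged 15.1, 15.1, 13.4 and 11.0 CPM at ZT2, ZT8, ZT14 and ZT20 (edgeR adjusted p = 0.763 for any difference). Cysltr2, a leukotriene receptor of NP3 neurons, averaged 17.0, 18.8, 15.8 and 13.3 CPM (adjusted p = 0.749). Mrgprb5 had a median of 167.9 CPM, above every one of the 9 genes, with a range of 145.8 to 186.2, and Mrgpra2a one of 25.3 with a range of 21.1 to 30.3. Of the ligands, Il4 (median 0.294 CPM), Tslp (0.132), Il13 (0) and Osm (0.037) were at or near 0 in the ganglion, and the bile acid receptor Gpbar1 and the histamine receptor Hrh4 had medians of 0. Cysltr2 and these last 6 genes were chosen after their values were seen.

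By edgeR none of 10 NP1, 9 NP2 or 10 NP3 markers passed any of the 9 tests, where 0.0504% of all genes passed the test of any difference. At an unadjusted p under 0.05 for any difference the counts were 0, 2 and 1, beside 6.19% of all genes. Their summed levels were 1019 to 1257 CPM for NP1, 428.5 to 518.3 for NP2 and 312.6 to 392.5 for NP3 over the 12 libraries, each sum holding genes of the set. They overlapped between all times, apart from NP2 at ZT20 (428.5 to 488.6) and ZT8 (489.8 to 513.0). In the same libraries 1 of 7 satellite glia markers passed, Fabp7, whose lipid-carrying protein is known to follow the clock in brain glia: it averaged 590.4 ± 33.1, 322.1 ± 28.7, 220.7 ± 19.5 and 455.1 ± 20.5 CPM (edgeR adjusted p = 0.000178 for any difference). A change of that size was visible in this gene, whose libraries lay close together within each time. It does not show that a like change would be seen in genes of wider spread, such as Mrgprd, Nts or Il31ra.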

How the data were processed

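Polyadenylated RNA of mouse lumbar ganglia was sequenced as paired reads of 150 bases; strandedness is not stated. Per the submitters' processing notes, HISAT2 2.2.1, StringTie 2.1.5 and R 4.2.180 were used with build GRCm38.p6; their roles and the annotation are not given there. The authors deposited estimated counts that are not whole numbers. The commonest value above 10 in a library lay between 16.4 and 17.24 and was shared by genes of different length, as when coverage is scaled by 1 factor, so exact read depth is unknown. The 348 assembled loci, 0.203% to 0.231% of a library, were left out. IDs were matched to GENCODE M21 without the version.

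Values were rounded and fitted with edgeR 4.0.16 in R 4.3.3 (filterByExpr, TMM, robust quasi-likelihood, 1 model of the 4 times); 25809 genes were tested, and p-values were adjusted over all of them by the Benjamini-Hochberg method. The script was tested on simulated data. Log2 CPM used a prior count of 2. DESeq2 1.42.0, limma 3.58.1, other scaling and filters, a replicate block, approximate reads, and leaving out libraries were alternatives. Permutation tests were two-sided with 100000 resamples. Tables were made in Python 3.11.15. The text names all 9 genes, of each list the genes that passed or else up to its first 4, and the 3 closest genes of each of the 9, of which 1 is not reported here. The genes and lists were chosen with earlier results of these data known.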

Additional observations from a re-analysis of the deposited data

How the results depend on the processing

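In edgeR, limma-trend and all alternatives other than DESeq2, 0 of the 9 genes passed any of the 9 tests, also with each library left out in turn (0 to 0). DESeq2 called 1 of 9, Mrgprx1, in the test of any difference, the 12-h alternation and ZT20 against ZT14. Each of the 9 genes had 1 difference between times refitted under the alternatives, and none of these fold changes changed sign. The number of passing pairs, 2 of 36, was 4 on deviations from the time means, 1 without the 2 farthest libraries, 0 without the muscle-richest libraries (chosen after seeing the data, as were the sum of Il31ra and Gm3226 and the index within 9 libraries), and 0 to 5 with each library left out.

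Over all genes, the counts for any difference, 24 h, 12 h, ZT14 against ZT2, ZT20 against ZT8, ZT8 against ZT2, ZT14 against ZT8, ZT20 against ZT14 and lastly ZT2 against ZT20 were 13, 17, 0, 12, 6, 5, 0, 11 and 1 by edgeR and 282, 157, 110, 100, 66, 82, 104, 106 and 77 by DESeq2. With approximate reads the 12-h, ZT14 against ZT2 and ZT14 against ZT8 counts were 5, 19 and 1, and without a filter the last was 1. Without the muscle-richest libraries, any difference gave 8, 24 h 4, and 3 differences fell to 0 (ZT14 against ZT2, ZT20 against ZT14, and ZT20 with ZT2). The 12-h and ZT14 against ZT8 counts stayed at 0 there. With a library left out the counts ran from 4 to 22, 5 to 17, 0 to 9, 3 to 13, 0 to 10, 1 to 10, 0 to 4, 4 to 17 and 0 to 11.

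Deviations of same-numbered libraries correlated with a median r of 0.03, and 5 of 18 pairs were above 0.1. For libraries of different number and time the median r was 0.01, and 8 of 36 pairs were above 0.1. These values show no clear pairing by replicate number but cannot exclude one. With the replicate block, 0 of the 9 genes passed in every test, and the all-gene counts were 7 for any difference, 4 for 24 h, 5 for ZT14 against ZT2, 2 for ZT20 against ZT8 and 3 for ZT8 against ZT2; 4 of 12 libraries correlated best with their own number. Read depth limits Hrh1 most, at 206 to 463 approximate reads a library.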
